A study of Mus musculus with 8 samples.

Results

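The 10 genes described here, Gzma, Gzmb, Gzmk, Prf1, Nkg7, Ncr1, Klrd1, Tbx21, Eomes and Ifng, encode the killing machinery, receptors, transcription factors and main cytokine of cytotoxic lymphocytes. They were taken by gene name from an Agilent mouse array, where 12 probes carry them, 2 each for Nkg7 and Ifng and 1 for each other gene. All 12 probes passed the filter on dim probes, so 10 of the 18410 genes tested are members. The pancreatic lymph node was taken from BALB/c mice lacking Deaf1 and compared with that of wild-type littermates, which asks how loss of Deaf1, a transcription factor, changes node expression with age. A knockout mouse in Cy5 (red) and a littermate pool in Cy3 (green) shared each array of 2 colours.

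There were 2 arrays at 4 weeks, against a pool of 2 wild-type mice, 3 at 12 weeks and 3 at 30 weeks, both against pools of 3. All mice were untreated, as far as the labels say, and bred in a pathogen-free facility. The sex of the mice and the part of Deaf1 that was deleted are not given in the sources used here. The knockout was Cy5 on all 8 arrays, so dye and genotype cannot be told apart, and no wild-type mouse was hybridised against a pool, so the spread among wild-type mice enters no test. Across genes, the pool channel of one array correlated with that of another at its age at 0.984 for 4 weeks and 0.998 to 0.999 for the later ages. The share of probes well above background ran from 37.2% to 62.6% for the pools and from 46.8% to 71.4% for the knockouts. All 13 T cell and all 10 B cell markers were measured, and at least 12 and 9 of them were well above background on every array. In these whole nodes, fewer cells of a type and less RNA per cell cannot be told apart. The 3 Deaf1 probes do not check the genotype, because the deleted part is unknown. The tested one had fitted log2 ratios of -0.17, 0.34 and 0.10 at 4, 12 and 30 weeks, and it passed the test at 12 weeks (limma adjusted p = 0.0344). Another Deaf1 probe that passed the filter had log2 ratios of -0.29 and -0.10 at 4 weeks and 0.12, 0.15 and 0.18 at 12 weeks. At 30 weeks its ratios were -0.74, 3.11 and -0.62. The 3.11 is on replicate 2 of 30 weeks, and its cause was not tested. The remaining Deaf1 probe did not pass the filter. Replicate 2 of 12 weeks stood apart. It had log2 ratios of 5.32 for Xist and -3.89 for Ddx3y, an X-linked and a Y-linked gene, and its ratios correlated across genes at 0.166 and 0.0776 with the other two arrays of its age, against 0.58 between those. Replicate 2 of 30 weeks correlated at 0.373 and 0.356 with the others of its age, against 0.885 between those. Of 4 sex-linked genes measured, 4 were well above background in the pool on every 12-week array, against 1 on both 4-week arrays and 1 or 2 on the 30-week arrays. The part of sex in the differences between ages was not tested. The summed ratio of 10 pancreatic acinar markers was -1.95 and -0.64 at 4 weeks, ran from -0.25 to 0.70 at 12 weeks and from -4.58 to 3.96 at 30 weeks. That of 7 adipocyte markers was -0.69 and -0.29 at 4 weeks and ran from -1.29 to 0.26 at 12 weeks and from -0.30 to 0.60 at 30 weeks. That of 7 neutrophil markers was 0.61 and 0.15 at 4 weeks and ran from -2.78 to 0.78 at 12 weeks and from -0.84 to -0.08 at 30 weeks. The part of these cell types in the values below was not tested.

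Natural killer (NK) cells and CD8 T cells kill by releasing granules that hold perforin, which opens the target membrane, and granzymes, the serine proteases that enter through it. NK cells sense targets through paired activating and inhibitory receptors, of which Ncr1 (NKp46) is a defining activating one in mice and Klrd1 (CD94) is the shared partner of the NKG2 chains. The T-box factors T-bet (Tbx21) and Eomes drive the maturation of both cell types, and interferon gamma is the cytokine that T-bet helps to switch on. In a resting lymph node NK cells are a small population.

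Of these genes 4 were lower in the knockout as a mean over the ages, Ncr1, Nkg7, Gzma and Prf1, and their promoters are shown because these 4 carry the calls over that mean. Of all genes tested, 44.1% were called over that mean, 18.7% as lower. The windows run from 250 bases before to 50 bases after the start site and come from RefSeq on GRCm38.p6, which matched 9 of the 10 genes. They are chr7:4337465-4337764 on the plus strand for Ncr1, chr7:43436888-43437187 on the plus strand for Nkg7, chr10:61297586-61297885 on the plus strand for Prf1 and chr13:113100932-113101231 on the minus strand for Gzma. Capitals mark the T-box letters AGGTGT and the RUNX letters TGTGGT, searched on both strands, so that ACACCT and ACCACA are matches on the opposite strand.
Ncr1: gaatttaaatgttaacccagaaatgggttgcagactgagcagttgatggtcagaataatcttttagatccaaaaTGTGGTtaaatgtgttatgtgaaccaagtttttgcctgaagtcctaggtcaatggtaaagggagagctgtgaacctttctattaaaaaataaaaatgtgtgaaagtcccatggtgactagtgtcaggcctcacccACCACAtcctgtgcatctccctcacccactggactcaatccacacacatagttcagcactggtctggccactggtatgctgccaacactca
Nkg7: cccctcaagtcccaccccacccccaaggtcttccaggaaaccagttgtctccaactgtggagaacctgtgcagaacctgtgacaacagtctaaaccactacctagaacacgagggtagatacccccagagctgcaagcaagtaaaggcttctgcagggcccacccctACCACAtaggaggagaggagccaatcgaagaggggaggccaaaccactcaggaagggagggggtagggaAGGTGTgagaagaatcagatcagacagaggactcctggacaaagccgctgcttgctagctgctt
Prf1: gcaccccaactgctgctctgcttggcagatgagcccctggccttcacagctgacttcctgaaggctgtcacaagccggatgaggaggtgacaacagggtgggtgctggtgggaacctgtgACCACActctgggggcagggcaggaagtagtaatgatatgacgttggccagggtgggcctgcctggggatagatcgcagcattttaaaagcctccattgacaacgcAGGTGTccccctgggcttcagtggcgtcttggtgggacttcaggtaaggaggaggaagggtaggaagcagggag
Gzma: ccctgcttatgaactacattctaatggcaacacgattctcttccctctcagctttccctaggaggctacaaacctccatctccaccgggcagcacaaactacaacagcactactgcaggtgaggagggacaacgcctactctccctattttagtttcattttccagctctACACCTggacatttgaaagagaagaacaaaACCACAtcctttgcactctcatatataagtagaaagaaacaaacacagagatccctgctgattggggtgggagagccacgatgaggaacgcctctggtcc
A RUNX match lay in all 4 of these windows and a T-box match in those of Nkg7, Prf1 and Gzma. In Ncr1 the RUNX letters began at bases -176 and -41 from the start site, in Nkg7 at -83, in Prf1 at -130 and in Gzma at -50. The T-box letters began at -14 in Nkg7, -24 in Prf1 and -80 in Gzma. Among the 9 member promoters, 5 held the RUNX letters and 4 the T-box letters, against 16.9% and 13.9% of 27025 promoters of the same length. The letters TTCG, the core named for Deaf1 sites, were in 6 of the 9 and in 44.8% of all. The AP-1 letters TGANTCA were in 1, that of Gzmb, and in 7.93% of all. A match only describes these letters.

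In the knockout nodes, 4 of the 10 genes were lower at 4 weeks and none was higher, 1 was lower at 12 weeks, and 2 were lower and 1 higher at 30 weeks. The receptor gene Ncr1 was lower at every age and on all 8 arrays. Gzma and Tbx21 were lower at 4 weeks, and their ratios were higher at 30 than at 4 weeks. These ages also differ in slide, scanner and software version. A gene was called at a limma adjusted p under 0.05 over all 18410 genes. At 4 weeks 22.7% of all genes were called in either direction and 7.38% as lower, against 4 of 10 members. At 12 weeks 2.61% were called and 1.37% as lower, against 1 of 10. At 30 weeks 39.1% of all genes were called, 18.4% as lower and 20.7% as higher, so that the 3 members called there are a share near that background. Over the mean of the ages 44.1% of genes were called, 18.7% as lower and 25.4% as higher, and 4 of 10 members were called, all lower. The share of members called in either direction is near that background.

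The median fitted log2 ratio of the 10 genes was -0.36 at 4 weeks, -0.12 at 12 weeks and 0.16 at 30 weeks, where all genes had medians of 0.02, 0.02 and 0.03. By array, the median over the 10 genes was -0.58 and -0.11 at 4 weeks, -0.14, -0.35 and -0.15 at 12 weeks, and 0.12, -0.12 and 0.26 at 30 weeks. The 12-week array with the lowest median is replicate 2, and the only 30-week array below 0 is replicate 2 of that age. Replicate 1 of 4 weeks, lower than the other 4-week array here, also had the lower acinar and adipocyte sums of its age, and replicate 2 of 12 weeks the lowest neutrophil sum of the 8 arrays, and their part was not tested. Without replicate 1 of 4 weeks, no member was called at 4 weeks. Without replicate 2 of 12 weeks, 5 were called at 12 weeks: Gzmb (0.93, limma adjusted p = 0.035), Gzmk (0.54, limma adjusted p = 0.0351) and Ifng (0.61, limma adjusted p = 0.0265) were then higher, and Ncr1 (-0.95, limma adjusted p = 0.00701) and Nkg7 (-0.57, limma adjusted p = 0.0494) lower. Without replicate 3 of 30 weeks, 1 was called at 30 weeks. Leaving out either 4-week array, which changes the pooled error, gave 5 at 30 weeks and 2 at 12 weeks. Over the fits that left out 1 array, the count of all genes called moved too. At 12 weeks it ran from 18 to 1852, against 480 with all arrays. At 30 weeks it ran from 3939 to 7953, against 7191, and it also moved at 4 weeks. The changes in members called are therefore not read as particular to them. With each array's ratios centred on their median in place of the loess curve over intensity, no member was called at 4 weeks, and the median of all genes moved to 0.49 at 4 weeks, 0.41 at 12 weeks and 0.15 at 30 weeks. Centring on the genes tested removed that shift and gave 4 members called at 4 weeks, 1 at 12 weeks and 2 at 30 weeks. The genes called were not all those of the main setting. Nkg7 did not pass at 4 or 30 weeks there, and the 4-week ratio of Tbx21 shrank, with values given below.

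**Figure D1:**
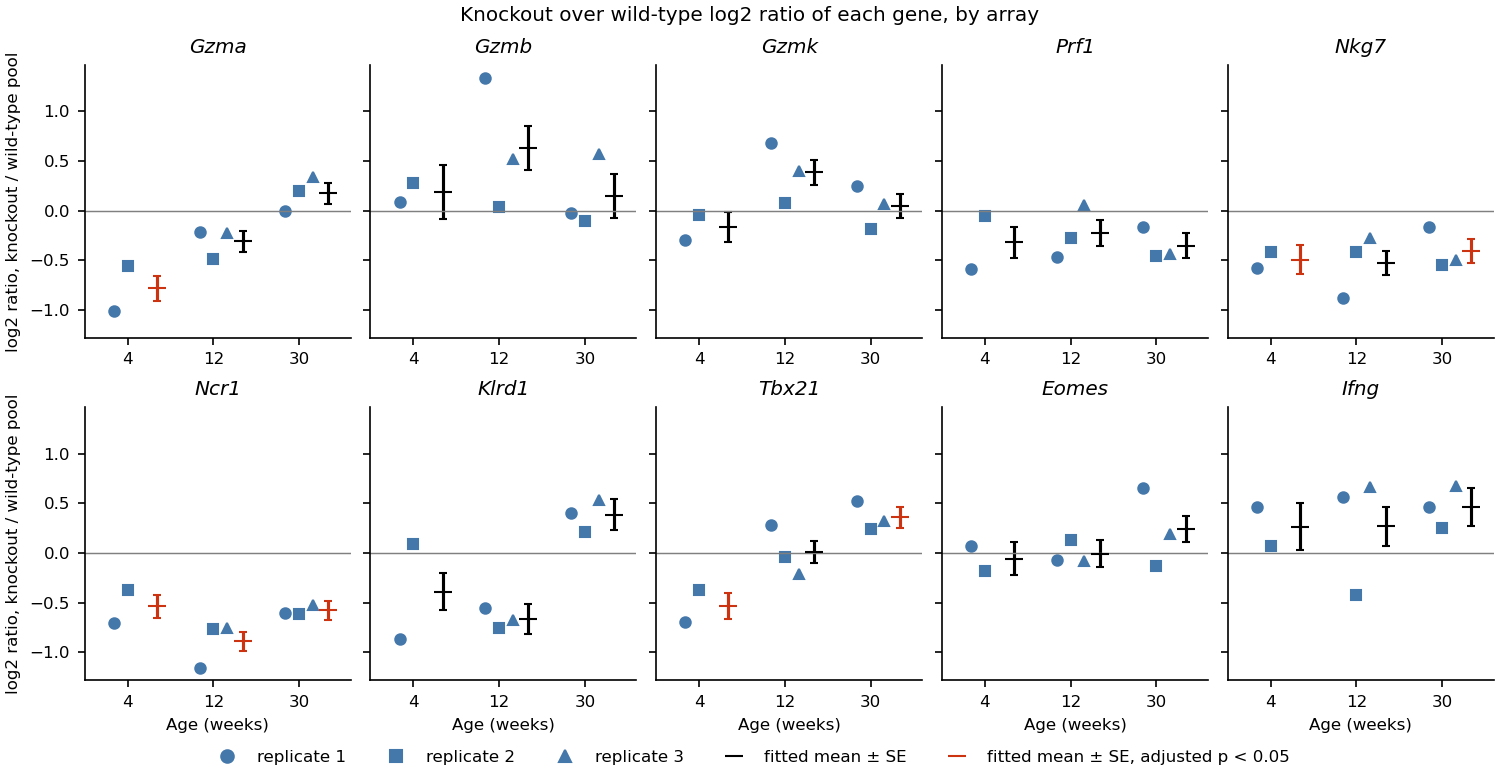
Log2 ratio of knockout over wild-type pool (vertical axis) for each gene at 4, 12 and 30 weeks. Blue symbols are single arrays by replicate number and bars are the fitted mean ± SE, red where the adjusted p is under 0.05. Ncr1 and Nkg7 lie below 0 on all 8 arrays, while Gzma and Tbx21 run from negative at 4 weeks to 0.18 and 0.36 at 30 weeks.

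Among the granule genes, Gzma encodes granzyme A, a tryptase-like granzyme abundant in NK cells. Its log2 ratio was -1.01 and -0.56 at 4 weeks, -0.21, -0.49 and -0.23 at 12 weeks, and -0.01, 0.20 and 0.33 at 30 weeks. The 3 ages do not overlap: both 4-week arrays are the lowest and the 30-week arrays the highest. At 4 weeks the fitted ratio was -0.78 ± 0.13 (SE, n = 2), or 1.72-fold lower in the knockout, with a limma adjusted p of 0.00452. At 12 weeks it was -0.31 ± 0.11 (n = 3, limma adjusted p = 0.122) and at 30 weeks 0.18 ± 0.11 (n = 3, limma adjusted p = 0.22), neither of which passed. The 4-week call was lost without replicate 1 of 4 weeks (-0.56, limma adjusted p = 0.118) and with median centring in place of loess (-0.04), but with centring on the genes tested the value was -0.51 (limma adjusted p = 0.0191). The mean log2 level of Gzma in the wild-type channel was 9.34 ± 0.40 (SD, n = 2) at 4 weeks, 8.57 ± 0.02 (n = 3) at 12 weeks and 7.89 ± 0.06 (n = 3) at 30 weeks. Levels are normalised log2 intensities, and because the 4-week arrays had their own slide, scanner and software version, levels were not tested between ages.

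Granzyme B, from Gzmb, is the aspartate-cleaving granzyme that triggers caspases. On the arrays the log2 ratio was 0.09 and 0.28 at 4 weeks, 1.34, 0.04 and 0.52 at 12 weeks, and -0.02, -0.10 and 0.57 at 30 weeks. Replicate 1 of 12 weeks was far above the rest, and the ages overlapped. The fitted ratio at 12 weeks was 0.63 ± 0.22 (SE, n = 3), which did not pass (limma adjusted p = 0.127), and at 4 and 30 weeks it was 0.19 and 0.15. The knockout channel of that array had a log2 level of 8.31, against 7.12 and 7.68 on the other two, while the pool stood at 6.97, 7.08 and 7.16.

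Granzyme K, from Gzmk, is a tryptase-like granzyme found mostly in memory CD8 T cells. The log2 ratio was -0.29 and -0.04 at 4 weeks, 0.68, 0.08 and 0.40 at 12 weeks, and 0.25, -0.18 and 0.07 at 30 weeks. Both 4-week arrays were below 0 and all 12-week arrays above it, but no age passed the test, with limma adjusted p of 0.478, 0.108 and 0.781. This probe was dim. On both 4-week arrays the knockout channel did not reach well above background, and the pool did on only 1 of the 2, so no fold is given. The pool failed to reach it on all 3 arrays of 12 weeks. The dim side was then set at the higher of its own value and the lowest signal well above background. On that footing the knockout mean was 1.29-fold higher at 12 weeks. This figure does not take in the spread of the arrays, and the 12-week test did not pass. The 12-week direction turned with centring on the genes tested, where the ratio was -0.17 (limma adjusted p = 0.411).

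Prf1 encodes perforin, the pore-forming protein of the granule. The log2 ratio of Prf1 was -0.59 and -0.05 at 4 weeks, -0.47, -0.27 and 0.06 at 12 weeks, and -0.16, -0.45 and -0.44 at 30 weeks. It was below 0 on 7 of 8 arrays, with replicate 3 of 12 weeks the exception. The fitted ratios of -0.32, -0.23 and -0.35 did not pass at any age (limma adjusted p = 0.182, 0.299 and 0.0582). At 30 weeks Prf1 passed without replicate 1 or 2 of 4 weeks or replicate 1 or 3 of 12 weeks (limma adjusted p from 0.0422 to 0.0483). The mean over the ages, -0.30 ± 0.08 (SE), passed with a limma adjusted p of 0.0162. That call was lost without replicate 1 of 4 weeks (-0.21, limma adjusted p = 0.0983) and the direction turned with median centring in place of loess (0.016), while centring on the genes tested gave -0.32 (limma adjusted p = 0.0037).

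Nkg7 encodes a granule membrane protein of NK and T cells that is needed for efficient degranulation. Its brighter probe, the one tested, had log2 ratios of -0.57 and -0.41 at 4 weeks, -0.88, -0.42 and -0.27 at 12 weeks, and -0.17, -0.55 and -0.49 at 30 weeks. All 8 values were below 0, and the ages overlapped. The fitted ratio was -0.49 ± 0.15 (SE, n = 2) at 4 weeks with a limma adjusted p of 0.044, -0.52 ± 0.12 (n = 3) at 12 weeks with 0.0573, and -0.40 ± 0.12 (n = 3) at 30 weeks with 0.0286. Over the mean of the ages it was -0.47 ± 0.07 (SE), or 1.39-fold lower, with a limma adjusted p of 0.00172. The other Nkg7 probe was also below 0 on 8 of 8 arrays, from -0.53 to -0.02. It had smaller fitted ratios of -0.22, -0.27 and -0.20, none of which passed when each probe was tested on its own, and a mean over the ages of -0.23 that did (limma adjusted p = 0.0116). The 30-week call was lost without replicate 2 or replicate 3 of that age (-0.33 and -0.36, limma adjusted p = 0.134 and 0.139). The 4-week call was lost without either array of 4 weeks or replicate 2 or 3 of 30 weeks (limma adjusted p from 0.0515 to 0.422). Nkg7 turned to 0.41 at 4 weeks and to 0.17 over the mean of the ages with median centring in place of loess, and with centring on the genes tested it was -0.05 at 4 weeks, -0.21 at 30 weeks and -0.17 over the mean, none of which passed.

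**Figure D2:**
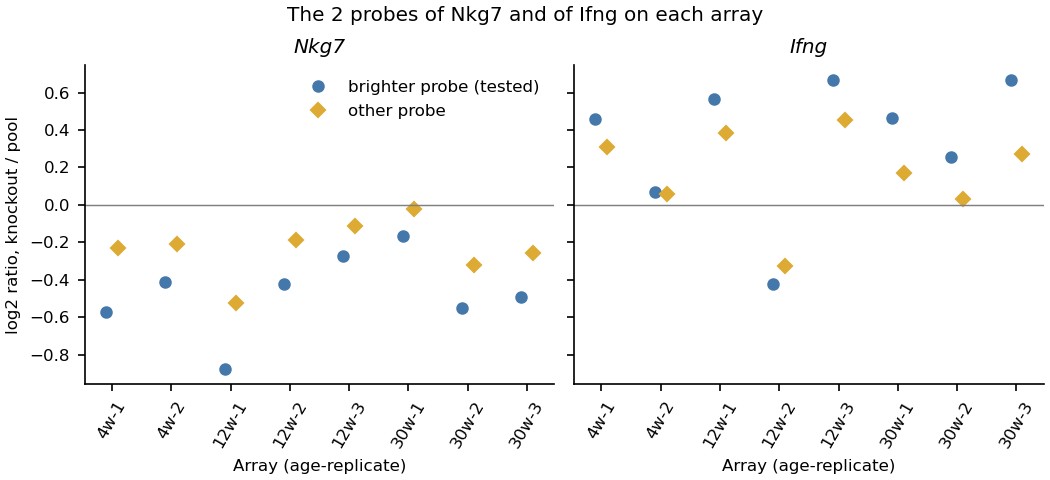
Log2 ratio of knockout over wild-type pool (vertical axis) on each of the 8 arrays, named by age in weeks and replicate, for the 2 probes of Nkg7 and of Ifng. Circles are the brighter probe, which was tested, and diamonds the other. Both Nkg7 probes lie below 0 on 8 of 8 arrays, and both Ifng probes lie below 0 only on replicate 2 of 12 weeks.

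Of the receptor genes, Ncr1 encodes NKp46, which mouse NK cells and some innate lymphoid cells carry. Its log2 ratio was -0.70 and -0.38 at 4 weeks, -1.15, -0.76 and -0.75 at 12 weeks, and -0.60, -0.62 and -0.52 at 30 weeks. Every array was below 0, the 12-week arrays were the lowest, and none of them overlapped the other ages. The fitted ratio was -0.54 ± 0.12 (SE, n = 2) at 4 weeks, or 1.45-fold lower, -0.89 ± 0.10 (n = 3) at 12 weeks, or 1.85-fold lower, and -0.58 ± 0.10 (n = 3) at 30 weeks, or 1.49-fold lower. The limma adjusted p was 0.0139, 0.0104 and 0.00274, and 0.000312 for the mean over the ages of -0.67 ± 0.06. The log2 level was 7.56 ± 0.06 (SD, n = 3) in the pool and 6.67 ± 0.27 in the knockout at 12 weeks, and 7.19 ± 0.02 against 6.61 ± 0.03 at 30 weeks. The probe was well above background in both channels of all 8 arrays. An offset of 50 was added to the intensities, which narrows ratios of dim genes. The scanner software's own log ratio, made without the offset, this background correction or this loess fit, gave -1.13, -1.51 and -1.33 at the 3 ages, all passing. The part of the offset alone was not tested. The 4-week call was lost without replicate 1 of 4 weeks (-0.38, limma adjusted p = 0.281) and with median centring in place of loess (-0.13), and the 12-week call when those arrays were fitted alone (limma adjusted p = 0.195). With centring on the genes tested all 3 ages passed, at -0.60, -1.11 and -0.69.

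Klrd1 encodes CD94, which joins NKG2 proteins to form receptors for a non-classical MHC molecule on NK and CD8 T cells. Its log2 ratio was -0.87 and 0.09 at 4 weeks, -0.56, -0.76 and -0.67 at 12 weeks, and 0.40, 0.21 and 0.53 at 30 weeks. All 12-week arrays were below 0 and all 30-week arrays above it, while the 4-week arrays disagreed. The fitted ratios were -0.39 ± 0.19 (SE, n = 2), -0.66 ± 0.15 (n = 3) and 0.38 ± 0.15 (n = 3), and none passed, with limma adjusted p of 0.175, 0.0576 and 0.0798. The 4-week arrays enter the pooled error: without either of them Klrd1 passed at 12 weeks (limma adjusted p = 0.028) and at 30 weeks (limma adjusted p = 0.0102), and at 4 weeks it passed at -0.87 without replicate 2 (limma adjusted p = 0.0112). Over the settings run, the fitted Klrd1 ratio ranged from -0.72 to -0.05 at 12 weeks and from 0.31 to 0.67 at 30 weeks. At 4 weeks it ranged from -0.87 to 0.48. In the knockout channel the 12-week log2 levels were 9.94, 9.69 and 9.71 against 10.50, 10.45 and 10.39 in the pool.

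**Figure D3:**
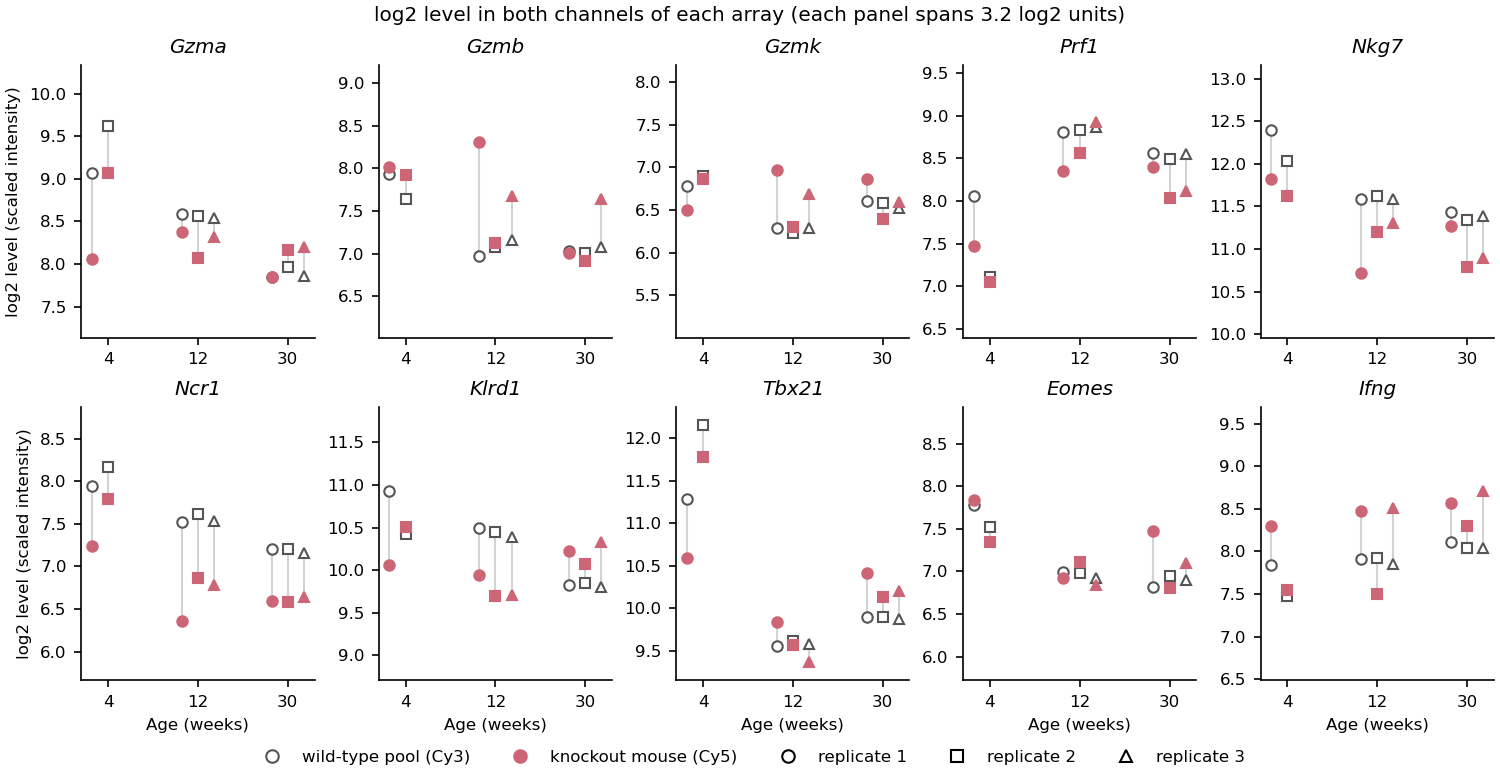
Normalised log2 level of each gene (vertical axis, each panel spanning 3.2 log2 units) at 4, 12 and 30 weeks. Open symbols are the wild-type pool and filled symbols the knockout mouse of the same array, joined by a line. Within 12 and 30 weeks the pool values of a gene lie close together, with an SD of 0.02 for Gzma at 12 weeks, while the knockout values spread; Tbx21 in the pool is 11.3 and 12.2 at 4 weeks and 9.6 at 12 weeks.

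Of the transcription factors, Tbx21 encodes T-bet, which directs type 1 effector genes in NK and T cells. Its log2 ratio was -0.70 and -0.37 at 4 weeks, 0.28, -0.05 and -0.21 at 12 weeks, and 0.52, 0.24 and 0.32 at 30 weeks. Both 4-week arrays were the lowest of the 8 and all 30-week arrays were above 0. The fitted ratio was -0.53 ± 0.13 (SE, n = 2) at 4 weeks, or 1.45-fold lower in the knockout, with a limma adjusted p of 0.022. It was 0.01 ± 0.11 (n = 3) at 12 weeks (limma adjusted p = 0.969) and 0.36 ± 0.11 (n = 3) at 30 weeks, or 1.28-fold higher, with a limma adjusted p of 0.0288. The 4-week call was lost without replicate 1 of 4 weeks (-0.37, limma adjusted p = 0.364), turned to 0.38 with median centring in place of loess, and was -0.08 with centring on the genes tested. The 30-week call was lost without replicate 1 or replicate 3 of that age (0.28 and 0.38, limma adjusted p = 0.167 and 0.0955).

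Eomes encodes the second T-box factor of this pair, which acts in NK cell and memory CD8 T cell maturation. The log2 ratio of Eomes was 0.07 and -0.18 at 4 weeks, -0.07, 0.13 and -0.08 at 12 weeks, and 0.65, -0.13 and 0.20 at 30 weeks. Replicate 1 of 30 weeks was the highest and the ages overlapped. No age passed the test, with fitted ratios of -0.06, -0.01 and 0.24 and limma adjusted p of 0.848, 0.981 and 0.187. The 95% interval at 12 weeks ran from -0.31 to 0.30. Without replicate 2 of 30 weeks the 30-week ratio was 0.42 and passed (limma adjusted p = 0.0379).

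Ifng encodes interferon gamma, the cytokine that activates macrophages and raises antigen presentation. The brighter probe had log2 ratios of 0.46 and 0.07 at 4 weeks, 0.56, -0.42 and 0.66 at 12 weeks, and 0.46, 0.25 and 0.67 at 30 weeks. It was above 0 on 7 of 8 arrays, replicate 2 of 12 weeks being the exception. The fitted ratios of 0.26 ± 0.24 (SE, n = 2), 0.27 ± 0.19 (n = 3) and 0.46 ± 0.19 (n = 3) did not pass, with limma adjusted p of 0.478, 0.411 and 0.0926. Without replicate 2 of 12 weeks it passed at 12 weeks (0.61, limma adjusted p = 0.0265) and at 30 weeks (limma adjusted p = 0.00745). The other probe, spotted 10 times per array, had log2 ratios of 0.31 and 0.06 at 4 weeks, 0.39, -0.32 and 0.45 at 12 weeks, and 0.17, 0.03 and 0.27 at 30 weeks. Its repeat spots had an SD of 0.04 to 0.084 within an array. Both probes were below 0 on replicate 2 of 12 weeks, and both read the same RNA on the same array.

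The knockout ratio of 2 genes differed between ages by a test of the difference itself, against 18.8% of all genes called in either direction between 4 and 30 weeks and 7.09% as higher at the later age. The ratio of Gzma was 0.96 ± 0.17 (SE) higher at 30 than at 4 weeks, with a limma adjusted p of 0.0076, and every 30-week array lay above every 4-week array. That of Tbx21 was 0.89 ± 0.17 higher, with a limma adjusted p of 0.0105 and again no overlap. The share of all genes whose arrays do not overlap between these ages is not given here. Without replicate 1 of 4 weeks neither passed, at 0.73 for each (limma adjusted p = 0.0722 for Gzma and 0.101 for Tbx21). Median centring in place of loess gave 0.36 and 0.26, neither passing. With centring on the genes tested Gzma passed at 0.66 (limma adjusted p = 0.0379) and Tbx21 did not at 0.56 (limma adjusted p = 0.116). Slide, scanner and software version differ between 4 weeks and the later ages and cannot be told apart from age.

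Between 4 and 12 weeks no member passed in limma, where 6.98% of all genes were called, 5.61% as lower at 12 weeks, and 4 members had an unadjusted p under 0.05. Between 12 and 30 weeks none passed, where 0.777% of all genes were called, and again 4 had an unadjusted p under 0.05. The counts of members called in these contrasts ran from 0 to 4 and from 0 to 3 over the alternatives. The largest difference was that of Klrd1, 1.05 ± 0.22 higher at 30 than at 12 weeks, with a 95% interval of 0.55 to 1.55 and a limma adjusted p of 0.0699. On the slide that held all 3 arrays of 12 weeks and replicate 1 of 30 weeks, that replicate exceeded the 12-week mean by 1.07 for Klrd1, 0.51 for Tbx21, 0.30 for Gzma and 0.29 for Ncr1. The Ncr1 ratio did not pass between any ages, with an interval of -0.39 to 0.31 for 30 against 4 weeks.

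**Figure D4:**
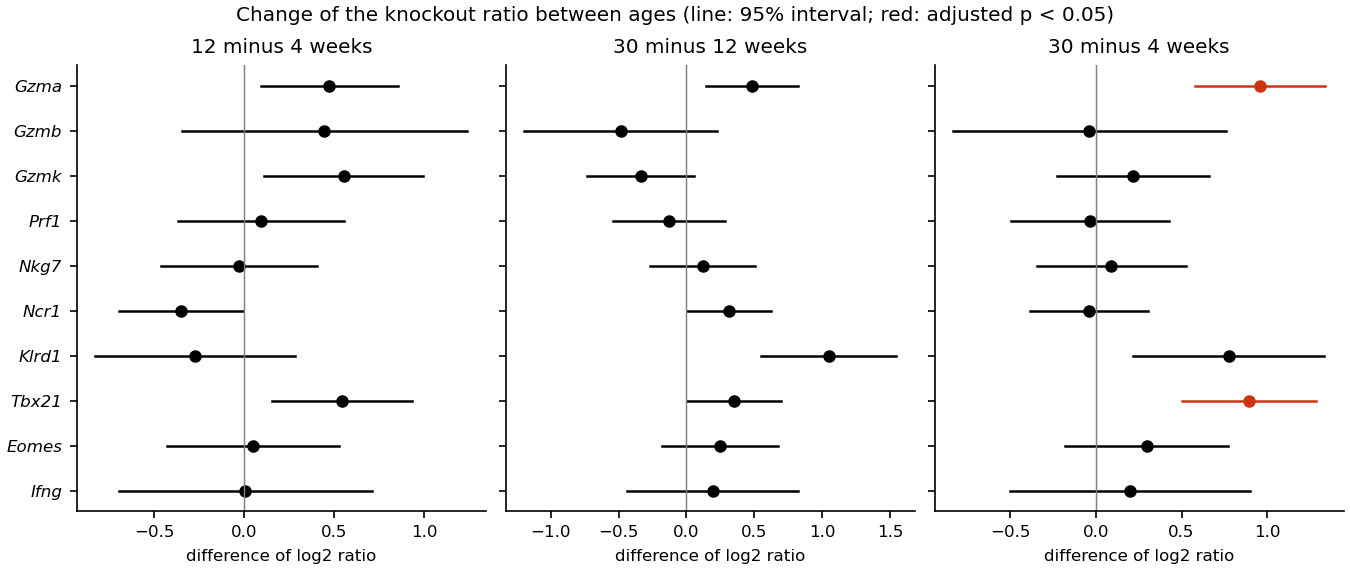
Difference of the knockout log2 ratio between ages (horizontal axis) for each gene, with its 95% interval as a line, red where the limma adjusted p is under 0.05. Gzma at 0.96 and Tbx21 at 0.89 pass for 30 minus 4 weeks, and Klrd1 at 1.05 for 30 minus 12 weeks has an interval above 0 but an adjusted p of 0.0699.

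The probes lie at chr13:114216656-114216715 for Gzma, chr13:114292770-114292829 for Gzmk, chr14:55213150-55213209 for Gzmb and chr10:60699137-60699196 for Prf1, all on mm8 as the 4-week scanner files give them. On the same build Klrd1 is at chr6:129564066-129564125, Tbx21 at chr11:96914193-96914252, Eomes at chr9:118333866-118333925 and Ifng at chr10:117848778-117848837 and chr10:117848551-117848610. Ncr1 is at chr7:3947661-3947720 and Nkg7 at chr7:43306032-43306091 and chr7:43305698-43305757. These 2 genes, the members below 0 on every array, are on chromosome 7, which also carries Deaf1. The position of Deaf1 on it is not given here, and the part of the shared chromosome in their ratios was not tested. The exon or UTR under each probe is not given in the sources used here.

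Over the 8 arrays, the ratio of each gene was set against the mean of the other 9 members. Pearson's r was 0.75 for Gzma, 0.73 for Tbx21, 0.56 for Klrd1 and -0.02 for Ncr1, with the rest between 0.03 and 0.37. The mean ratio of the 10 genes was -0.41 and -0.16 at 4 weeks, -0.05, -0.29 and -0.06 at 12 weeks, and 0.13, -0.11 and 0.12 at 30 weeks. Among 14796 genes outside the members, the 8 with the highest r to that mean were Pf4, Zfp275, Irf5, Cog8, Lsm12, Rnf41, Kirrel and Fhl2, from 0.972 to 0.959. These are descriptions: arrays of 1 age may share a pool, and the highest of so many correlations over 8 points are high by selection. Pf4, a platelet chemokine, had ratios of -0.35 and 0.22 at 4 weeks, 0.56, -0.17 and 0.26 at 12 weeks, and 0.81, 0.14 and 0.69 at 30 weeks.

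Other genes of the same programme were taken by list. Of 20 further granule and killing genes, 16 were measured, of which 3 rose and none fell at 4 weeks, 2 rose at 12 weeks, and 3 rose and 6 fell at 30 weeks, with list medians of 0.06, -0.02 and -0.08. At 4 weeks 15.3% of all genes were called higher and 7.38% lower. At 12 weeks these shares were 1.23% and 1.37%, and at 30 weeks 20.7% and 18.4%. Srgn (1.01 ± 0.12), the core protein that packs granule contents, Ctsc (0.57 ± 0.12), the peptidase that activates granzymes, and Stx11 (0.36 ± 0.10), a fusion protein, were higher at 4 weeks, with limma adjusted p of 0.00134, 0.0109 and 0.0287. Cst7 (0.52 ± 0.10), an inhibitor of granzyme-activating cathepsins, and Serpinb9 (0.51 ± 0.11), the granzyme B inhibitor, were higher at 12 weeks, with limma adjusted p of 0.0393 and 0.0481. Rab27a (-0.48 ± 0.07), Stxbp2 (-0.97 ± 0.17) and Unc13d (-0.74 ± 0.13), which act in granule docking and priming, were lower at 30 weeks, with limma adjusted p of 0.00167, 0.00303 and 0.00325. These 8 results kept direction and call with centring on the genes tested, where 5 of the 16 were higher and 2 lower at 4 weeks, 5 and 1 at 12 weeks, and 3 and 4 at 30 weeks. The share of all genes called under this setting or median centring is not given here, for this list or those below.

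Of 36 further NK receptors and adaptors, 31 were measured: 2 rose and 4 fell at 4 weeks, 2 fell at 12 weeks, and 3 rose and 3 fell at 30 weeks. Beside these stand 15.3%, 1.23% and 20.7% of all genes called higher and 7.38%, 1.37% and 18.4% called lower. Cd7, a costimulatory receptor of NK and T cells, was lower at 4 weeks (-0.44 ± 0.08, limma adjusted p = 0.00705), at 12 weeks (-0.58 ± 0.07, limma adjusted p = 0.014) and at 30 weeks (-0.25 ± 0.07, limma adjusted p = 0.0178). On single arrays the Cd7 ratio ran from -0.71 to -0.21, below 0 on 8 of 8, but with centring on the genes tested it was -0.02 at 4 weeks, which did not pass, and -0.34 at 12 weeks, which did. Klrb1c, an NK receptor gene of the NKR-P1 family, was lower at 12 weeks by -0.51 ± 0.09 (limma adjusted p = 0.0326), was below 0 on 8 of 8 arrays, and stood at -0.81 with centring on the genes tested. Hcst, the adaptor of NKG2D, was lower at 4 weeks (-0.77 ± 0.14, limma adjusted p = 0.00757) and Il18r1, a receptor chain for interleukin 18, was higher (0.70 ± 0.10, limma adjusted p = 0.00228). At 30 weeks Fcgr3 (-0.38 ± 0.06) was lower and Klrc2 (0.49 ± 0.09) and Il18r1 (0.39 ± 0.08) were higher, with limma adjusted p of 0.00275, 0.00425 and 0.00603. With centring on the genes tested Hcst at 4 weeks (-0.34) and Fcgr3 at 30 weeks (-0.23) did not pass, and of the 31 genes 3 were higher and 14 lower at 4 weeks, 1 and 18 at 12 weeks, and 2 and 2 at 30 weeks. Median centring in place of loess gave 6 higher and 1 lower at 4 weeks, and 8 higher and 8 lower at 12 weeks. Without the share of all genes called under these settings, these counts are not read as particular to NK receptors.

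Of 14 other lineage transcription factors, 4 rose and 2 fell at 4 weeks, none passed at 12 weeks in limma, and 3 rose and 4 fell at 30 weeks. Of all genes, 15.3% were called higher and 7.38% lower at 4 weeks, and 20.7% and 18.4% at 30 weeks. Zbtb32, a zinc finger repressor of activated lymphocytes, was lower at 4 weeks (-1.09 ± 0.13, limma adjusted p = 0.00112) and at 30 weeks (-0.57 ± 0.10, limma adjusted p = 0.00377). Gata3 (-0.47 ± 0.09) was lower and Ikzf2 (0.65 ± 0.14) higher at 4 weeks, and Rora (-0.51 ± 0.10) was lower and Zeb2 (0.68 ± 0.14), a partner of T-bet in terminal maturation, higher at 30 weeks. Of these 14, centring on the genes tested gave 5 higher and 1 lower at 4 weeks, 4 and 0 at 12 weeks, and 3 and 2 at 30 weeks, and median centring in place of loess gave 13 higher at 12 weeks. Xcl1 (-0.56 ± 0.10) and Ccl5 (-0.72 ± 0.20), chemokines of NK and CD8 T cells, were lower at 4 weeks, and Cx3cr1 (0.51 ± 0.11), a chemokine receptor, was higher at 30 weeks. With centring on the genes tested Gata3 (-0.08) and Ccl5 (-0.26) no longer passed at 4 weeks.

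Of 23 genes of the interferon gamma axis, 21 were measured: 7 rose and 1 fell at 4 weeks, 1 rose at 12 weeks, and 2 rose and 2 fell at 30 weeks. Beside these stand 15.3%, 1.23% and 20.7% of all genes called higher and 7.38%, 1.37% and 18.4% called lower. Jak1 (1.13 ± 0.09) and Ifngr1 (0.65 ± 0.09), the kinase and a chain of the interferon gamma receptor, and Gbp3 (1.14 ± 0.13), an interferon-induced GTPase, were higher at 4 weeks, with limma adjusted p of 0.000415, 0.00249 and 0.0011. Cxcl10, an interferon-induced chemokine, was higher at 12 weeks (1.03 ± 0.19, limma adjusted p = 0.0389) and at 30 weeks (0.73 ± 0.19, limma adjusted p = 0.0164). Its ratio was 0.69 and 1.32 at 4 weeks, 1.59, 0.77 and 0.74 at 12 weeks, and 0.57, 0.55 and 1.07 at 30 weeks, so it was above 0 on every array, replicate 2 of 12 weeks included, where Ifng itself was below 0. Gbp2 (-0.39 ± 0.07) and Il12a (-0.37 ± 0.10) were lower at 30 weeks, and with centring on the genes tested neither passed. That setting gave 11 higher and 1 lower of the 21 at 4 weeks, 10 and 2 at 12 weeks, and 8 and 0 at 30 weeks, and median centring in place of loess gave 15, 16 and 10 higher.

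Markers of the cells that express these genes were read beside them. Of 13 T cell markers, none rose and 3 fell at 4 weeks, Cd8b1 (-0.57 ± 0.11), Cd247 (-0.42 ± 0.11) and Cd2 (-0.58 ± 0.16), and with centring on the genes tested all 3 lay between -0.18 and 0.00 and did not pass. At 12 weeks 1 rose and 1 fell, Lat (0.35 ± 0.07) and Cd8b1 (-0.54 ± 0.09), and at 30 weeks 4 fell, among them Cd2 (-0.76 ± 0.13), Cd28 (-0.32 ± 0.07) and Cd3d (-0.45 ± 0.11). The shares of all genes called lower were 7.38%, 1.37% and 18.4% at 4, 12 and 30 weeks, and 1.23% were called higher at 12 weeks. Of the 13, centring on the genes tested put 3 higher and 1 lower at 4 weeks, 4 and 0 at 12 weeks, and 1 and 2 at 30 weeks, while median centring in place of loess gave 8, 11 and 2 higher and none lower in limma. The summed T cell ratio ran from -0.22 to -0.21 at 4 weeks, -0.33 to 0.03 at 12 weeks and -0.25 to 0.01 at 30 weeks. Of 7 NK cell markers, which include Ncr1 and Klrd1, 6 were measured: 3 fell at 4 weeks (Ncr1, Klrb1c and Il2rb), 2 at 12 weeks (Ncr1 and Klrb1c) and 1 at 30 weeks (Ncr1). Beside these stand 7.38%, 1.37% and 18.4% of all genes called lower. Centring on the genes tested gave 2, 2 and 1 of the 6 lower and none higher. Median centring in place of loess gave none called at 4 weeks, 1 higher and 2 lower at 12 weeks, and 1 lower at 30 weeks. Over the 5 NK cell markers with a value on every array, the summed ratio ran from -0.66 to -0.01 at 4 weeks, -0.62 to -0.49 at 12 weeks and 0.06 to 0.33 at 30 weeks. Klrd1 is one of these 5, whose median ratio was -0.57 and -0.12 at 4 weeks, -0.50, -0.58 and -0.43 at 12 weeks, and 0.27, -0.13 and -0.06 at 30 weeks. The part of cell numbers in the ratios of the 10 genes was not tested.

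**Figure D5:**
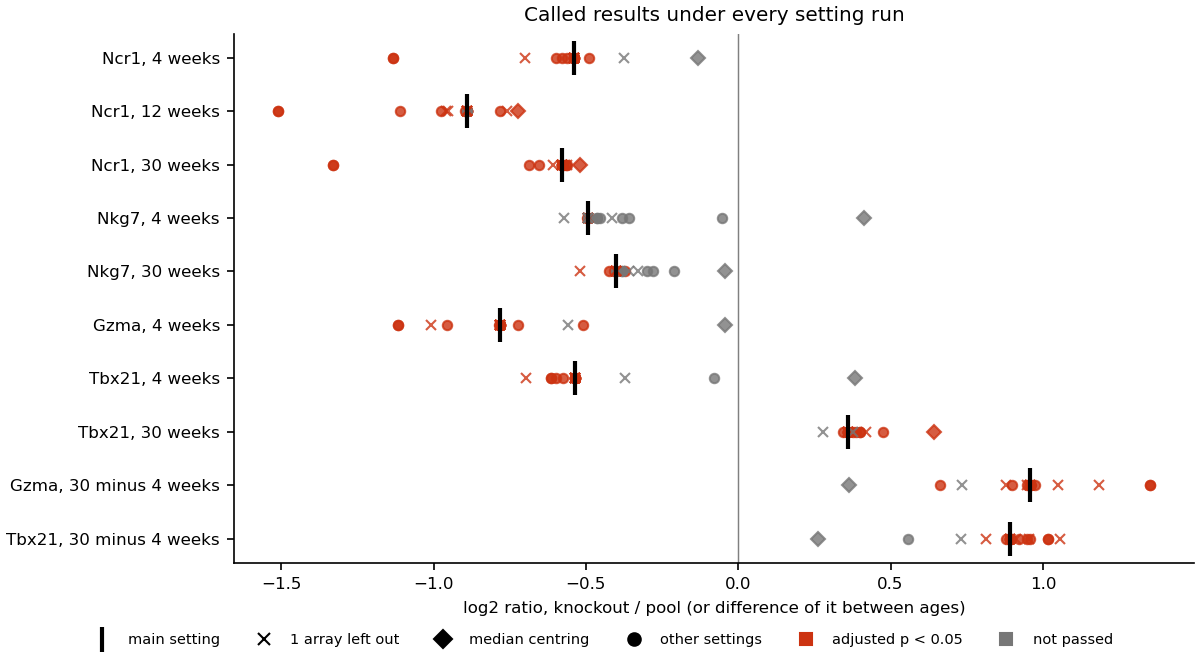
Log2 ratio of knockout over pool, or its difference between ages (horizontal axis), for 10 called results under each setting run. Bars are the main setting, crosses leave out 1 array, diamonds use median centring in place of loess, and red marks an adjusted p under 0.05. Ncr1 stays below 0 in all of them, from -1.51 to -0.72 at 12 weeks, while Nkg7 and Tbx21 at 4 weeks cross 0 with median centring.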

How the data were processed

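Each of the 8 deposited scanner files holds 2 channels of intensity per spot and the scanner software's log10 ratio of red over green, per the file headers. Feature Extraction made them, version 9.5.3.1 at 4 weeks and 10.2.1.3 later, per the file headers. The authors' deposited value table holds log2 ratios equal to those scanner ratios (r over probes at least 0.9999756 on each array), in the same direction, knockout over wild type. Its column medians ran from -0.21 to 0.151. Extraction used Trizol, then RNeasy columns, and 1 µg of RNA went into labelling, per the labels.

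Mean foreground and median background intensities were corrected with normexp (offset 50) and normalised within arrays by loess (span 0.3) in limma 3.58.1 under R 4.3.3, with control spots at weight 0. Of 45018 spots, 43379 were no controls and held 41174 probes. The 27464 probes well above background in either channel on every array of at least 1 age were kept, and the brightest per gene gave 18410 genes. Later files lack gene names, so members were found there by probe name. Levels for display were also scaled between arrays (Aquantile). Log2 ratios were fitted with lmFit and eBayes, 1 mean per age (5 residual degrees of freedom), two-sided, and adjusted by Benjamini-Hochberg over all genes of a contrast. The labels call the arrays of an age biological replicates. The test was run on simulated ratios with errors drawn independently for each array. Such data hold no error shared through a pool and no dye effect, so they cannot show how the test behaves under these.

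All members and probes are named. Of each other list, up to 3 genes with the smallest p in a contrast are named, besides the 8 genes most like the member mean and Deaf1. Xist, Ddx3y, Cd7 at 30 weeks, Klrb1c, Il2rb and Cxcl10 by array were chosen after their values were seen. One result of the chemokine list, and with it the list's counts, is not reported here. Members and lists were chosen with earlier results of these data known. Alternatives changed the background correction, normalisation, filter, probe rule, slide and replicate terms, weights and arrays; slide as a fixed term, GC lowess, centring on the genes tested and single-probe tests were chosen after seeing the data.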

Additional observations from a re-analysis of the deposited data

Results flagged for a closer look

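The Gzma ratio was higher at 30 than at 4 weeks by 0.96 (limma adjusted p = 0.0076) and the Tbx21 ratio by 0.89 (limma adjusted p = 0.0105), both by a test of the difference between ages, and both with no overlap between the arrays. Between these ages 18.8% of all genes were called, 7.09% as higher at 30 weeks, and slide, scanner and software version differ too. Klrd1 differed by 1.05 between 30 and 12 weeks, with every 12-week array below 0 and every 30-week array above it, but the test of the difference did not pass (limma adjusted p = 0.0699). Gzmk differed by 0.55 between 12 and 4 weeks, with both 4-week arrays below 0 and every 12-week array above it, and its test did not pass either (limma adjusted p = 0.132), though it did at 0.71 without replicate 2 of 12 weeks (limma adjusted p = 0.0422). The Gzmk probe was not well above background at 4 weeks in the knockout on both arrays and in the pool on 1 of 2, nor at 12 weeks in the pool on all 3 arrays. No group was large enough for a test of single outlying arrays.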

How the results depend on the processing

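The number of members called, 4 at 4 weeks, 1 at 12, 3 at 30 and 4 over the mean of the ages, and 0, 0 and 2 for 12 minus 4, 30 minus 12 and 30 minus 4 weeks, moved as follows. Median centring in place of loess gave 0 at 4 weeks, 4 at 12 weeks and 0 for 30 minus 4 weeks, and centring on the genes tested gave 1 for 30 minus 4 weeks. The log ratio of the scanner software gave 2, as did the values the authors deposited, for 12 minus 4 weeks. At 12 weeks a stricter filter gave 3, trend with robust moderation 3, the 12- and 30-week arrays alone 2, and the 12-week arrays alone 0; at 30 weeks the last pair gave 5 and 6. Array weights gave 6 at 12 weeks, 7 at 30 weeks, 1 for 12 minus 4 weeks and 3 for 30 minus 12 weeks. Slide as a random block had a negative estimated correlation (-0.259), which narrows errors, and gave 6, 6 and 7 at 12 weeks, 30 weeks and the mean, and 4 and 2 for 12 minus 4 and 30 minus 12 weeks; with that correlation set to 0, chosen after seeing this, every count equalled the main one. Leaving out 1 array gave 0 to 4 at 4 weeks, 1 to 5 at 12 weeks, 1 to 5 at 30 weeks, 3 to 6 over the mean, 0 to 1 for 12 minus 4, 0 to 1 for 30 minus 12 and 0 to 3 for 30 minus 4 weeks. The highest 12-week count came without replicate 2 of that age, and the lowest 30-week count without replicate 3 of that age. Apart from leaving out 1 array, the number of all genes called under these settings is not given here, so these counts are not read as particular to the members. Where no cause is named above, the cause was not tested.

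Among members called in either setting, directions turned under median centring in place of loess for Nkg7 at 4 weeks (0.41) and over the mean (0.17), Tbx21 at 4 weeks (0.38) and over the mean (0.54), and Gzma (0.14), Klrd1 (0.36) and Prf1 (0.016) over the mean. Ratios within an age that were called in neither also turned: Gzma (0.15), Nkg7 (0.16), Prf1 (0.27) and Eomes (0.10) at 12 weeks, and Klrd1 (0.48) and Eomes (0.28) at 4 weeks. With centring on the genes tested, Gzmk turned to -0.31 over the mean, -0.17 at 12 weeks and -0.09 at 30 weeks, Klrd1 to 0.017 at 4 weeks and 0.02 over the mean, Tbx21 to 0.20 and Eomes to -0.11 over the mean. Uncalled differences between ages turned for Eomes, Gzmk, Ifng, Nkg7 and Prf1. Ncr1 kept its direction at every age under every setting run.

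Replicate numbers were not taken to pair the samples: deviations of the 7 same-numbered pairs across ages correlated at -0.077 to 0.24, 2 of them over 0.1. The deviations of the 2 arrays at 4 weeks are equal and opposite by construction, so these values cannot settle whether the numbers pair samples. With the replicate block, 3, 1, 3 and 5 members were called at 4, 12 and 30 weeks and over the mean, and 0, 0 and 2 between ages. Gzmk, and the dim side of other low probes, limits what these signals can show.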
